A study of Mus musculus with 6 samples.

Results

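The neurotransmitter receptor subunits described here are the mouse genes for the GABA-A, GABA-B, ionotropic and metabotropic glutamate, glycine, serotonin and neuronal nicotinic receptors, taken by gene symbol. The symbols matched 77 of the 37002 gene names on the array, with 157 probes. All arrays came from teratomas, tumours of mixed tissue that embryonic stem cells form under the skin of a host. The tumours grew from mESCs (mouse embryonic stem cells) in BALB/c Nude mice, which lack a thymus and mature T cells, and mice were randomised to miR-124a-3p mimic (3 tumours, here miR-124a 1 to 3) or miRNA negative control (3 tumours, here control 1 to 3). Both groups received their RNA complexed with "Atelogen QG" by injection into the tumour, at 15 µg in 100 µL once every 3 days to day 28, starting at a tumour volume of 100 mm3 or more, about 10 days after implantation. RNA came from 1 of the 2 pieces of each tumour and was measured on 1-colour Agilent arrays. Neither the age of the mice nor a genotype of the cells is given in the sources used here.

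A synapse passes a signal when a transmitter released by one neuron binds receptor proteins on the next. Ionotropic receptors are channels built from several subunits: GABA and glycine receptors pass chloride and mostly inhibit, while AMPA, kainate, NMDA and nicotinic receptors pass cations and excite. Metabotropic receptors (GABA-B, the Grm family and most serotonin receptors) act through G proteins. The microRNA miR-124 is enriched in neurons, and the comparison asks how receptor transcripts differ between tumours given its mimic and tumours given the control RNA.

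Values below are log2 signals relative to the 75th percentile of the same array, so a value of 0 is the signal that 75% of values do not exceed. A fold change is the miR-124a mean minus the control mean on that log2 scale, with its SE from the fit across all genes (limma, n = 3 tumours a group), and adjusted p-values are Benjamini-Hochberg values over all 22947 genes tested. A probe's brightness depends on its sequence, so levels are compared between tumours and not between genes. Since the tumours are bulk tissue, a lower signal from fewer cells of a type and one from less RNA per cell cannot be told apart.

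Several facts of the arrays touch every value. All 6 arrays lay on 1 slide and were scanned together, with the miR-124a tumours in slide row 2 and the control tumours in slide row 1, so treatment and slide row cannot be told apart. Across genes, arrays correlated at 0.9882 to 0.992 among miR-124a tumours, 0.9857 to 0.9886 among control tumours and 0.9705 to 0.9868 between the groups. Between 63.4% and 65.9% of probes were well above background per array. Before any test, 2 tumours stood at the edges of the receptor values: miR-124a 2 had the highest signal of its group in 52 of the 61 subunits tested, and control 3 the lowest of its group in 44 of 61 and the highest in 0. Counts are therefore also given without these tumours, a choice made after the data were seen.

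Receptor subunits were widely present in the tumours. Of the 77 genes, 59 were well above background on all 6 arrays, 5 on 1 to 5 arrays and 13 on none. Per tumour, 62, 61 and 59 subunits were above background in miR-124a 1, 2 and 3, against 63, 61 and 61 in control 1, 2 and 3. The number of detected subunits was thus nearly the same in each tumour. All 9 AMPA and kainate subunits, all 9 NMDA and delta subunits and both GABA-B subunits were detected well enough to test, against 7 of 14 serotonin receptors and 8 of 11 neuronal nicotinic subunits.

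The genes well above background on no array were Chrna3, Chrna5 and Chrnb3 (nicotinic), Gabra6, Gabre and Gabrr3 (GABA-A), Glra3 and Glra4 (glycine), Grm6 (metabotropic glutamate) and Htr1a, Htr3b, Htr5a and Htr6 (serotonin). Several of them are known from restricted places: Gabra6 from cerebellar granule cells, Grm6 from retinal ON bipolar cells, and Chrna3 and Chrna5 from autonomic ganglia. Htr1d, Htr1f and Htr3a were well above background in 1 or 2 tumours and were not tested.

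None of the 61 subunits tested passed an adjusted p of 0.05, the threshold that 3.23% of all genes passed (0.488% higher and 2.75% lower in miR-124a tumours). At an unadjusted p under 0.05 (limma) stood 21 subunits (34.4%, background 27.3%), of which 20 were higher (background 11.4%) and 1 was lower (background 15.9%). A fold change above 0 was found in 49 of the 61, against 49.7% of all genes. Their median log2 fold change was 0.45, against -0.0022 over all genes, of which 10.4% exceeded 0.45. In 21 of 61 subunits every miR-124a tumour lay above every control tumour (34.4%, background 15.0%), and in 1 every miR-124a tumour lay below (background 20.6%). In both directions together that is 22 of 61, near the background of 35.6%, so the number of separated subunits is no result about them.

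Taken per tumour, the median subunit, as a difference from its control mean, stood at 0.19, 0.76 and 0.32 in miR-124a 1, 2 and 3, against 0.15, 0.13 and -0.25 in control 1, 2 and 3. The groups did not overlap, but miR-124a 1 lay only just above control 1, and the width of the gap rested on miR-124a 2 and control 3. The median fold change was 0.27 without miR-124a 2, 0.31 without control 3 and 0.14 without both. These 2 tumours were picked by the subunit values themselves, so leaving them out was bound to lower the median. It was 0.54 without control 1, 0.45 without control 2, 0.53 without miR-124a 1 and 0.51 without miR-124a 3. Without miR-124a 2 and control 3, 41 of 61 subunits had a fold change above 0. The count at an unadjusted p under 0.05 (limma) was then 6 instead of 21 (background 19.8%). It was 10 without control 3 (background 26.5%) and 9 without miR-124a 2 (background 17.9%). The count was 28 without control 1 (background 26.7%) and 19 without control 2 (background 20.9%). It was 24 without miR-124a 1 (background 21.5%) and 17 without miR-124a 3 (background 21.4%). The share of all genes was thus also lower in the fits that left out miR-124a 2.

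**Figure D1:**
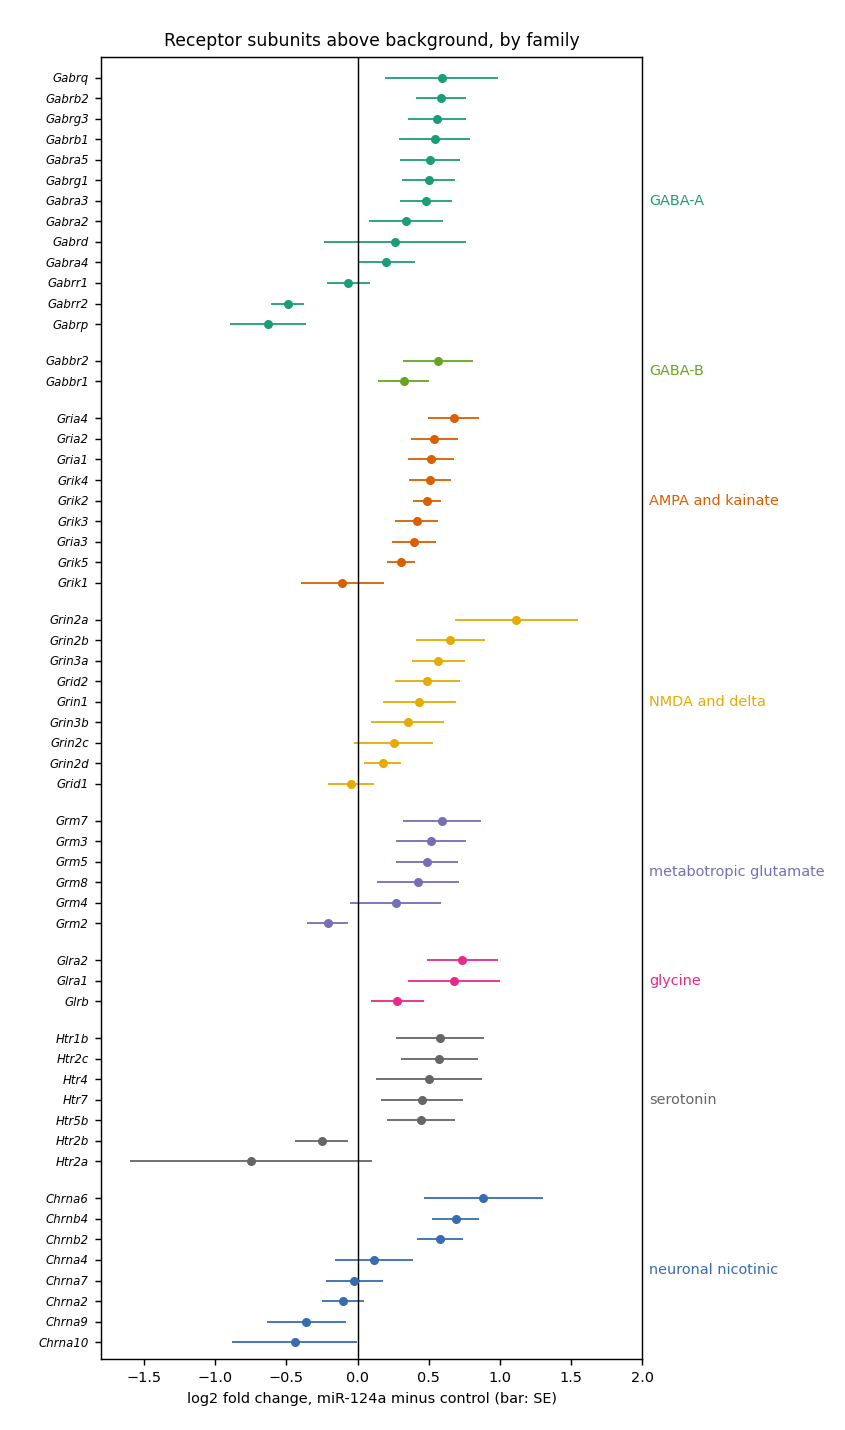
Log2 fold change of 57 of the 61 subunits tested, miR-124a minus control, grouped by receptor family from top to bottom, with points for the fitted value and bars for its SE (n = 3 tumours a group). Most points lie to the right of 0, the AMPA and kainate points other than Grik1 lie between 0.31 and 0.67, and the neuronal nicotinic group spreads to both sides of 0.

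The AMPA and kainate receptors carry fast excitation. Of their 9 subunits 8 had a positive fold change and 7 had every miR-124a tumour above every control tumour (background 15.0%). An unadjusted p under 0.05 (limma) was found in 8, all higher (background 11.4% higher), but none passed the adjusted threshold. The family median was 0.49, with a range of -0.11 (Grik1) to 0.67 (Gria4).

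Grik2, a kainate receptor subunit, came closest to the threshold of all 61. Its signal was -2.76, -2.58 and -2.75 in miR-124a 1 to 3, against -3.13, -3.27 and -3.15 in control 1 to 3. Tumours of a group differed by less than 0.2 and the groups lay apart, with a log2 fold change of 0.49 ± 0.10 (SE), 1.40-fold, and an adjusted p of 0.0545 (limma). The signal of Grik2 was low, and with normexp background correction its log2 fold change was 0.20 (adjusted p = 0.0878, limma). Gria4, an AMPA subunit, stood at 0.62, 1.21 and 0.66 in miR-124a tumours, against 0.13, 0.30 and 0.05 in control tumours. Here miR-124a 2 was far above the other two, and the fold change was 0.67 ± 0.18 (adjusted p = 0.0875). Grik4, a kainate subunit that forms channels only together with Grik1, Grik2 or Grik3 proteins, had values of 0.97, 1.27 and 1.02 in miR-124a tumours, against 0.68, 0.74 and 0.33 in control tumours, a fold change of 0.51 ± 0.15 (adjusted p = 0.102).

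Gria2 encodes the AMPA subunit whose edited form keeps the channel closed to calcium, and it was looked at after its values were seen. Its signal was 3.19, 3.50 and 3.17 in miR-124a tumours, against 3.04, 2.62 and 2.59 in control tumours. The groups lay apart, by a gap that control 1 made narrow, and the fold change was 0.54 ± 0.16 (adjusted p = 0.108). Its 3 tested probes gave 0.54 to 0.58. The other AMPA subunits, Gria1 and Gria3, had fold changes of 0.52 ± 0.16 and 0.40 ± 0.15. At their brightest probes all 4 subunits from which AMPA channels are built thus had values of similar size. In Gria3 the groups overlapped, and its tested probes ranged from 0.08 to 0.49.

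Grik1, a kainate subunit, was the member of the family with a fold change below 0, and its value depended on the probe. The brightest of its 5 probes gave -0.11 ± 0.29, with 0.42, 0.42 and 0.22 in miR-124a tumours, against 0.65, 0.93 and -0.21 in control tumours. The other 4 probes gave 0.72, 0.83, 0.90 and 1.06, each with all miR-124a tumours above all control tumours. The probe at 87896544 to 87914404, for example, read -0.88, -0.57 and -1.14 in miR-124a tumours, against -1.40, -1.29 and -2.06 in control tumours. The sequences of 3 probes are shown because they tell these readings apart. By the array's mm9 annotation (minus strand), 2 probes join separate stretches of the gene, as a spliced transcript does, while the brightest lies whole inside the interval that one of them skips. No exon annotation of mm9 was used here, and which transcript the brightest probe reads was not tested.
Grik1 brightest probe, chr16:87935520-87935579: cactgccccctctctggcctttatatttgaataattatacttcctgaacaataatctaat
Grik1 probe spanning it, chr16:87923523-87936177: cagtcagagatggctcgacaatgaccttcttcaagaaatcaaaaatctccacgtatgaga
Grik1 second joining probe, chr16:87896544-87914404: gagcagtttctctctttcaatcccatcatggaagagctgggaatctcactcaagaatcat

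**Figure D2:**
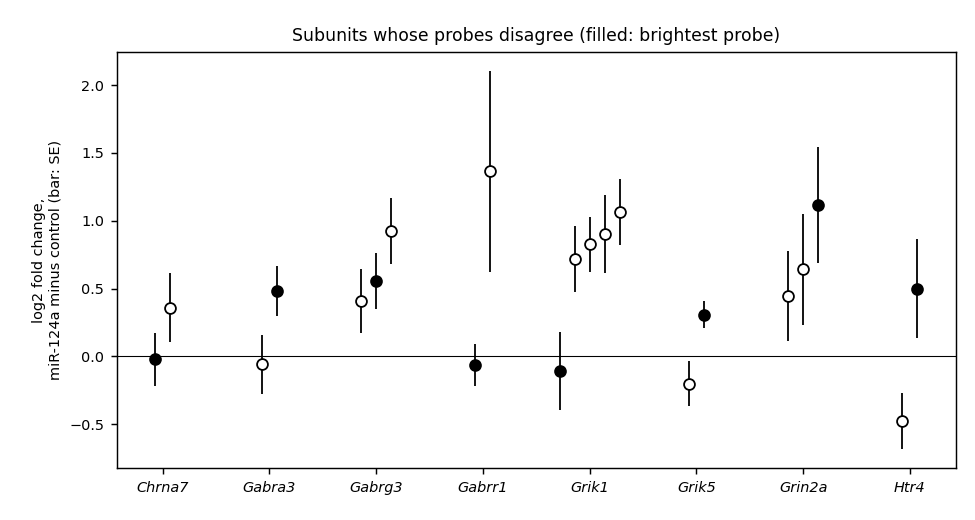
Log2 fold change, miR-124a minus control, of every tested probe of 8 subunits whose probes differed in sign or by over 0.5, with bars for the SE (n = 3 tumours a group); filled points are the brightest probe, which represents the gene elsewhere. For Grik1 the brightest probe sits just below 0 at -0.11 and the other 4 probes lie between 0.72 and 1.06.

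Probes disagreed in few other genes. Of 29 subunits with more than 1 tested probe, 23 had probes of 1 sign and 6 had both signs (Chrna7, Gabra3, Gabrr1, Grik1, Grik5 and Htr4). Over single probes, 94 of the 109 tested for the subunits were above 0 and 0 passed the threshold over the 35719 probes tested. The number above 0 was 52 of 61 when each gene was taken as the mean of its probes.

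NMDA receptors, coincidence detectors that need glutamate and depolarisation together, had 8 of 9 positive fold changes with a median of 0.43, the delta subunits included. Grin3a, a subunit that lowers calcium flow, stood at 1.37, 1.74 and 1.197 in miR-124a tumours, against 0.72, 1.15 and 0.73 in control tumours. The groups lay apart by a small margin, with a fold change of 0.57 ± 0.19 (adjusted p = 0.123). Grin2b, the subunit prominent in immature neurons, had -0.05, 0.40 and 0.12 in miR-124a tumours, against 0.00, -0.63 and -0.85 in control tumours, and control 1 overlapped the miR-124a range (fold change 0.65 ± 0.24, adjusted p = 0.153).

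Grin2a, the subunit that gains on Grin2b as neurons mature, had the highest fold change of the 61 subunits and one of the widest errors. Its signal was -0.49, 0.01 and -0.46 in miR-124a tumours, against -0.55, -2.30 and -1.46 in control tumours. Control 1 lay just below the miR-124a tumours and control 2 and 3 far below, which gave 1.12 ± 0.43 (adjusted p = 0.162). Its other 2 probes gave lower values, down to 0.44. Grin1, the subunit every NMDA receptor contains, had a fold change of 0.43 ± 0.26 with overlapping groups. Grid1, a delta subunit that binds cerebellins at synapses, was the 1 of 9 below 0, at -0.05 ± 0.16.

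Metabotropic glutamate receptors had 6 of 7 positive fold changes with a median of 0.49. Grm5, a Gq-coupled receptor that raises intracellular calcium, stood at 2.43, 2.86 and 2.25 in miR-124a tumours, against 2.24, 2.15 and 1.68 in control tumours (0.49 ± 0.22, adjusted p = 0.204). Grm7, a presynaptic receptor that dampens transmitter release, had 1.202, 2.12 and 1.502 in miR-124a tumours, against 1.36, 0.97 and 0.71 in control tumours, with overlap at control 1 (0.59 ± 0.27, adjusted p = 0.218). Grm2, another presynaptic receptor, was the exception at -0.21 ± 0.14.

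GABA-A receptors, the main fast inhibitory channels of the brain, had 13 of 16 positive fold changes with a median of 0.45. The tested alpha, beta and gamma subunits, from which the common channel is built, were all above 0 at their brightest probes. Gabrb2, a beta subunit that helps form the GABA site, had 1.39, 1.87 and 1.40 in miR-124a tumours, against 1.18, 0.95 and 0.76 in control tumours. Groups lay apart, with a fold change of 0.58 ± 0.18 (adjusted p = 0.109). Gabrg3, a gamma subunit, had -0.30, 0.13 and -0.13 in miR-124a tumours, against -0.41, -0.51 and -1.06 in control tumours (0.56 ± 0.21, adjusted p = 0.151).

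The GABA-A subunits below 0 were Gabrr2, Gabrp and Gabrr1, of which the rho subunits (Gabrr) are known from retinal bipolar cells and the pi subunit (Gabrp) from epithelia outside the brain. Gabrr2 was the one subunit of the 61 with every miR-124a tumour below every control tumour, at -1.51, -1.44 and -1.41, against -1.16, -0.82 and -0.91. Its fold change was -0.49 ± 0.12, with an adjusted p of 0.0729 (limma). It was also the one subunit that passed the threshold under any alternative run: with normexp background correction the fold change was -0.36 and the adjusted p 0.0469, where 6.72% of all genes passed. With a variance trend and robust estimation 0 subunits passed, against 7.51% of all genes. Gabrp read -2.80, -3.27 and -2.48 in miR-124a tumours, against -2.60, -1.81 and -2.25 in control tumours, with overlap at control 1 (-0.63 ± 0.27, adjusted p = 0.193).

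Gabrr1 had overlapping groups at its brighter probe (-0.07 ± 0.15) and a wide value at the other (1.36 ± 0.74), where control 3 was at -7.55, below background, and the remaining tumours between -5.05 and -4.31. The 2 probes share most of their target and differ at 2 bases, shown in capitals in the stretch chr4:33250513-33250542 (mm9, plus strand).
Gabrr1 brighter probe: ctTtccaccacggagcaggtgctttTttca
Gabrr1 dimmer probe: ctCtccaccacggagcaggtgctttCttca
Counted from 1 at the 5′ end of this stretch, the changes from the brighter to the dimmer probe are T3C and T26C. Which of them matches the RNA of these tumours was not tested.

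Many GABA-A genes lie side by side in the genome, and neighbours had values of one sign at their brightest probes. On chromosome 5 Gabra2, Gabra4, Gabrb1 and Gabrg1 had 0.34, 0.20, 0.54 and 0.50. On chromosome 7 Gabra5 and Gabrg3 had 0.51 and 0.56, and on chromosome X Gabra3 and Gabrq had 0.48 and 0.59. The pair on chromosome 4 was Gabrr2 and Gabrr1, both below 0. Since most subunits were above 0 wherever they lay, these values are not particular to the groups of neighbours.

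GABA-B receptors work as a pair, Gabbr1 binding GABA and Gabbr2 coupling to the G protein. Gabbr2 read -0.79, -0.36 and -0.80 in miR-124a tumours, against -0.92, -1.003 and -1.72 in control tumours (0.56 ± 0.25, adjusted p = 0.198). Gabbr1 read 2.26, 2.82 and 2.35 in miR-124a tumours, against 2.20, 2.30 and 1.95 in control tumours, with overlap (0.32 ± 0.18, adjusted p = 0.286).

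Of the glycine receptor subunits 3 were tested, all with fold changes above 0. Glra2, the alpha subunit of fetal neurons, read -1.41, -0.47 and -1.09 in miR-124a tumours, against -1.63, -1.62 and -1.94 in control tumours. The groups lay apart, with a fold change of 0.74 ± 0.25 (adjusted p = 0.1296). Glra1, the alpha subunit of the adult spinal cord, read -1.90, -0.88 and -1.75 in miR-124a tumours, against -2.57, -1.77 and -2.24 in control tumours (0.68 ± 0.32, adjusted p = 0.229). Glrb, which tethers the receptor to the scaffold protein gephyrin, read 2.46, 2.83 and 2.61 in miR-124a tumours, against 2.61, 2.45 and 2.01 in control tumours, with overlap (0.28 ± 0.18, adjusted p = 0.362).

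**Figure D3:**
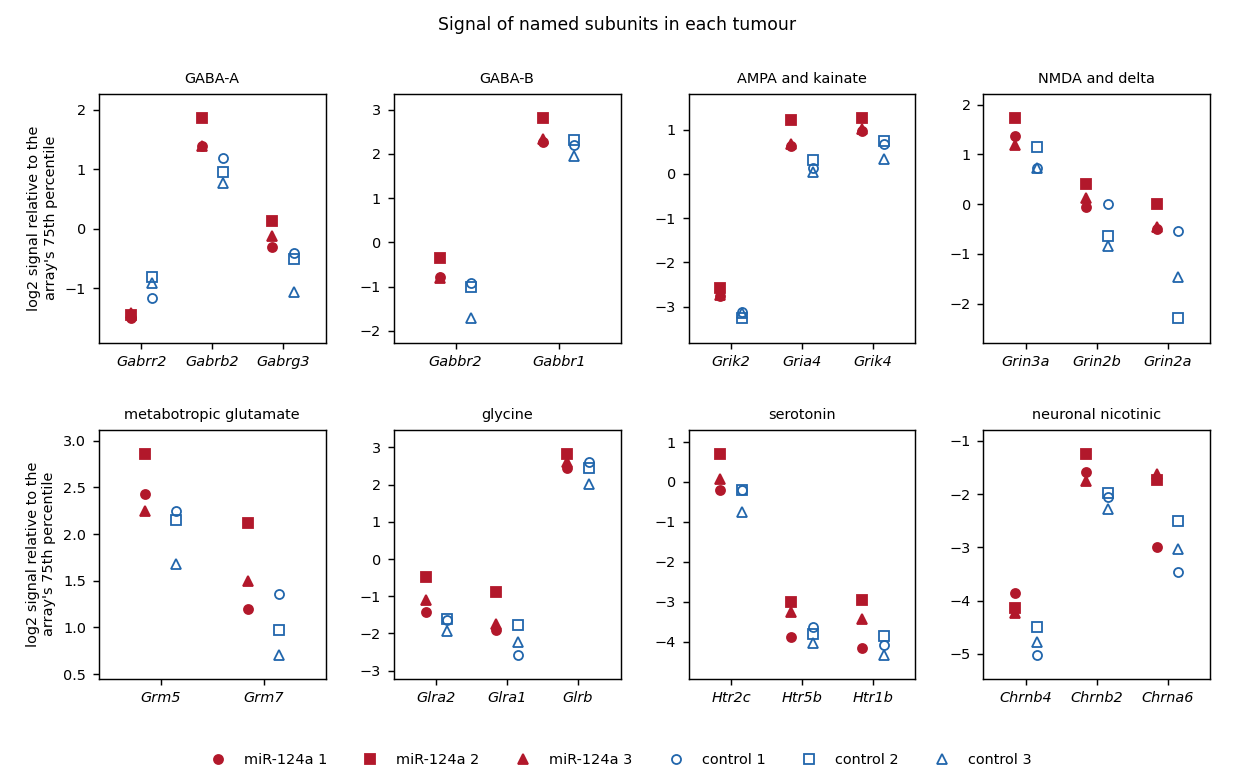
Log2 signal relative to the array's 75th percentile in each of the 6 tumours for up to 3 subunits of each receptor family, chosen by lowest p, with miR-124a tumours as filled red points left of the control tumours in open blue; point shape gives the tumour number. The square of miR-124a 2 is the top point of most genes, and in Gabrr2 all 3 miR-124a tumours lie below all control tumours.

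Serotonin receptors had 5 of 7 positive fold changes with a median of 0.45, but groups overlapped in all 7. Htr2c, a Gq-coupled receptor enriched in choroid plexus, read -0.21, 0.71 and 0.08 in miR-124a tumours, against -0.19, -0.21 and -0.74 in control tumours (0.57 ± 0.27, adjusted p = 0.226). Htr5b, a receptor of rodents that humans lack in working form, read -3.87, -3.004 and -3.26 in miR-124a tumours, against -3.64, -3.81 and -4.02 in control tumours (0.45 ± 0.24, adjusted p = 0.272). Htr1b, a receptor on nerve terminals, read -4.16, -2.95 and -3.42 in miR-124a tumours, against -4.09, -3.86 and -4.32 in control tumours (0.58 ± 0.31, adjusted p = 0.273). In all of these miR-124a 1 lay within the control range and miR-124a 2 above it. With normexp background correction the fold changes of the dim Htr5b and Htr1b were 0.13 and 0.17. Htr2a, the receptor of the cerebral cortex through which psychedelics act, passed the filter only through the control tumours and had its low mean from 1 tumour: miR-124a 3 read -5.68, below background, while miR-124a 1 and 2 read -2.73 and -2.37, against -2.67, -2.68 and -3.19 in control tumours (-0.75 ± 0.85, adjusted p = 0.598).

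Neuronal nicotinic subunits lay on both sides of 0, with 4 of 8 fold changes above 0 and a median of 0.05. Without Chrna10, which passed the filter only through the control tumours, 4 of 7 were above 0 and the median was 0.12; families were not tested against each other. Chrnb4, a subunit of ganglionic receptors, read -3.86, -4.14 and -4.23 in miR-124a tumours, against -5.01, -4.50 and -4.79 in control tumours. The groups lay apart, with a fold change of 0.69 ± 0.17 (adjusted p = 0.0751), while Chrna3 and Chrna5, its neighbours on chromosome 9 and its partners in those receptors, were well above background in 0 tumours. At such a low signal the scale depends on the background correction: with normexp the fold change of Chrnb4 was 0.13.

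Chrnb2, the beta subunit of most nicotinic receptors of the brain, read -1.59, -1.24 and -1.75 in miR-124a tumours, against -2.05, -1.98 and -2.29 in control tumours (0.58 ± 0.16, adjusted p = 0.0935). Its usual partner Chrna4 overlapped, with 0.12 ± 0.27. Chrna6, a subunit of dopamine neurons, read -2.99, -1.74 and -1.62 in miR-124a tumours, against -3.45, -2.51 and -3.03 in control tumours (0.88 ± 0.42, adjusted p = 0.228). Chrna7, which forms channels by itself, had -0.02 ± 0.20, a 95% interval of -0.50 to 0.46. Chrna9 and Chrna10, subunits of cochlear hair cells, had -0.36 ± 0.28 and -0.44 ± 0.44, and Chrna10 was above background in 1 of 3 miR-124a and 3 of 3 control tumours.

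The muscle nicotinic subunits, relatives that form the receptor of the neuromuscular junction, are not among the 61 and went the other way. All 5 fell (5 of 5 past the threshold, limma; background 2.75% lower), with a median of -1.55. Chrna1, the subunit that binds acetylcholine there, read 0.80, 1.13 and 1.62 in miR-124a tumours, against 2.95, 2.97 and 2.95 in control tumours, -1.77 ± 0.21 (adjusted p = 0.0211). Chrng, the fetal subunit, had -1.55 ± 0.18, Chrnd -1.68 ± 0.21, Chrne -1.37 ± 0.22 and Chrnb1 -1.34 ± 0.20. The skeletal muscle markers were lower beside them, with 9 of 11 past the threshold, a median of -1.63 and per-tumour medians of -1.84, -1.75 and -1.19 in miR-124a tumours, against -0.01, 0.29 and -0.30 in control tumours. None of the muscle subunits was called in any fit that left out miR-124a 1, miR-124a 2, control 1 or control 2. In these fits only 1, 0, 13 and 0 of all 22947 genes passed, in that order. All 5 were called without miR-124a 3 (375 genes passed), and 2 without control 3 (353 genes passed). The part of muscle content in these falls was not tested.

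Neuron markers were on the same side as the receptor subunits. All 16 markers had fold changes above 0, with a median of 0.46, and none passed the threshold. An unadjusted p under 0.05 (limma) was found in 9, all higher (background 11.4% higher). With normexp 7 passed (background 6.72% in either direction). The marker medians were 0.39, 0.63 and 0.30 in miR-124a tumours, against 0.12, 0.03 and -0.14 in control tumours, so the groups did not overlap. Every marker was well above background in all 6 tumours. As in the receptor values, miR-124a 2 was highest of its group in 15 of 16 markers and control 3 lowest of its group in 11 of 16, but control 3 was also the highest control tumour in 4 of 16 markers, against 0 of 61 subunits. The part of neuron content in the receptor values was not tested. Among other cell types, the medians were 0.21 for neural progenitor markers (6), 0.44 for neuroendocrine markers (6), 0.14 for astrocyte markers (6), -0.15 for oligodendrocyte markers (9), -0.07 for macrophage markers (5) and -0.21 for the 4 of 8 retina and pigment markers that were tested, with 0 past the threshold in each list. The gut epithelium list had 4 of 7 tested genes that fell (background 2.75% lower), namely Gkn2, Fabp2, Lgals4 and Tff1, with a list median of -1.29.

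**Figure D4:**
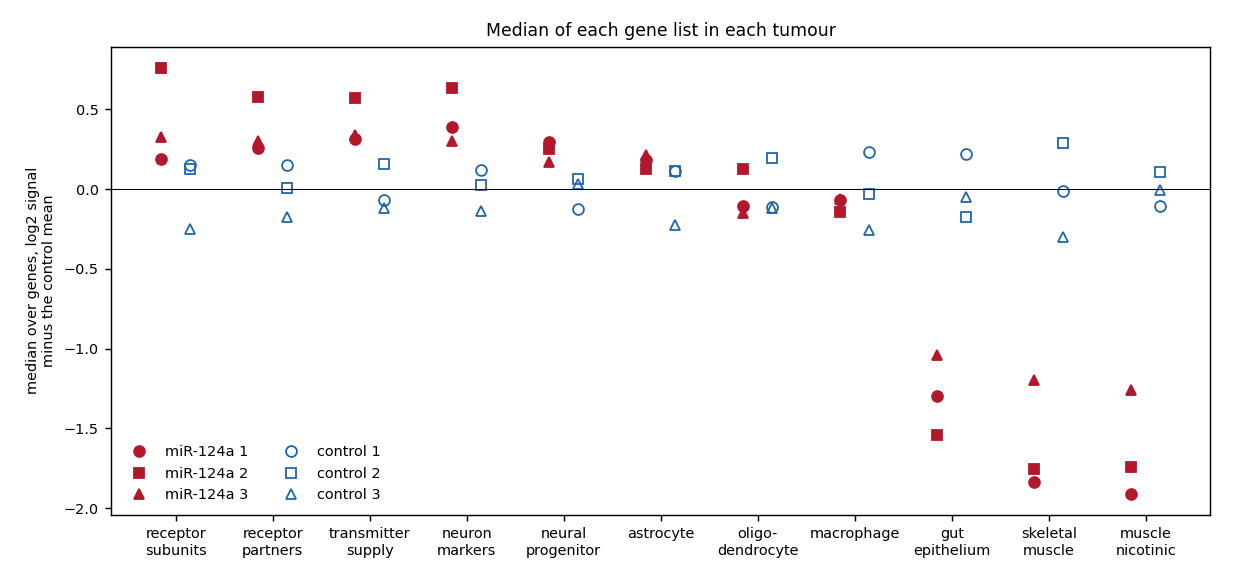
Median over the genes of each list in each tumour, as log2 signal minus the control mean, with miR-124a tumours in filled red left of the control tumours in open blue; point shape gives the tumour number. Receptor subunits, their partners, transmitter genes and neuron markers lie at 0.19 to 0.76 in miR-124a tumours, with miR-124a 2 on top, while the gut, skeletal muscle and muscle nicotinic medians lie below -1 in all 3 miR-124a tumours.

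Genes that make, pack and clear transmitters were also mostly above 0: 25 of 30 had fold changes above 0, with a median of 0.40. Of these genes 0 passed the threshold (background 3.23%) and 2 passed with normexp (background 6.72%). Both GABA and glutamate genes were among them, such as Gad1, a GABA-making enzyme (0.58 ± 0.22), and Slc17a6, a vesicular glutamate transporter (0.67 ± 0.23). The tested probes of Gad1 ranged from -0.18 to 0.61, so its direction depended on the probe. Genes that assemble or anchor receptors had 41 of 46 above 0 and a median of 0.36. Of these 46, 1 passed the threshold and 5 passed with normexp, against the same backgrounds. Gsg1l, an auxiliary protein of AMPA receptors, rose, with -1.55, -1.11 and -1.54 in miR-124a tumours, against -2.12, -2.22 and -2.36 in control tumours (0.83 ± 0.15, adjusted p = 0.0453). With normexp its value was 0.46 and the adjusted p 0.054, so it is not among those 5.

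The chloride transporters that set whether GABA excites or inhibits lay on opposite sides. Slc12a5 (KCC2), which extrudes chloride from mature neurons, read 3.85, 4.61 and 4.005 in miR-124a tumours, against 3.65, 3.79 and 3.09 in control tumours (0.65 ± 0.26, adjusted p = 0.179). Slc12a2 (NKCC1), which loads chloride into immature neurons and many epithelia, read 2.10, 2.08 and 2.23 in miR-124a tumours, against 2.54, 2.79 and 2.63 in control tumours. Neither overlapped, and Slc12a2 had -0.52 ± 0.11 with an adjusted p of 0.0558 (with normexp -0.39 and 0.0372).

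Receptors for other transmitters had 19 of 26 fold changes above 0, with a median of 0.34, which was 0.092 with normexp. P2rx2, an ATP-gated channel of sensory and other neurons, rose by 0.94 ± 0.17 (adjusted p = 0.0453), though its probes ranged down to -0.03. P2rx5, an ATP-gated channel known from skeletal muscle, fell by 1.29 on the log2 scale (adjusted p = 0.0469).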

How the data were processed

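Total RNA of 6 teratomas, 3 per group, was measured on 1-colour Agilent arrays. Per the file headers, the deposited scanner intensity came from Agilent Feature Extraction (11.5.1.1 per the submitters' processing notes) after background subtraction and carries no scaling across arrays. A value table by the authors, also deposited, is in log2 units and equals log2 of that intensity minus 1 constant per array (SD of the difference 0.0029). Column medians were -2.97, -2.99 and -2.98 for miR-124a 1 to 3 and -2.98, -3.07 and -2.98 for control 1 to 3. Its direction is that of signal and it is not centred per probe; what software wrote it is unknown here.

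Averaging the spots of each probe gave 56605 probes from 59305 non-control spots, and 22 outlier probes were left out. No spot was saturated. The number of arrays limits the precision. From log2 intensity each array's 75th percentile was subtracted. Tested probes were those well above background in all 3 tumours of either group, and the brightest of them stands for its gene. Gene names came from accessions held in the GRCm38.p6 RefSeq table (32979 probes) or else from current or older symbols (10223 and 520), and 12861 probes kept the name in the file. Positions are in mm9, as annotated on the array. The groups were compared with limma 3.58.1 (R 4.3.3) in a fit of all 6 tumours with no covariate. The p-values were adjusted (Benjamini-Hochberg) across 22947 genes. On simulated data with 200 changed genes, the fit called 7.5% of 1.5-fold, 53.7% of 2-fold and 80.3% of 4-fold changes. It called 0.018% of unchanged genes. A change of 1.5-fold was thus seldom called in that simulation. In the data 742 genes passed, more than the 200 changed there, and the p-value cutoff of the adjustment depends on that number. The simulated rates may therefore differ from those in the data, and a subunit without a call may still differ between the groups. The labels do not number the mice, but since mice were assigned at random, 3 to a group, each tumour is taken to be from another mouse.

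Subunits named in each family are those past the threshold and up to 3 with the smallest p, and in each other list up to 4 past the threshold, with Chrna1, Slc12a5 and Slc12a2 always. Gria1, Gria2, Gria3, Grik1, Gabrp, Gabrr1, Grin1, Grid1, Grm2, Htr2a, Chrna4, Chrna7, Chrna9, Chrna10, Chrne, Gad1, Slc17a6, the gene neighbours and the genes at background were named after their values were seen. The members and gene lists were chosen with earlier results of these data known. Tumours of the same number deviated from their group means with correlations of -0.155, -0.039 and -0.065. Tumours of different number ranged from -0.208 to 0.337. The numbers thus gave no sign of pairing, but 3 tumours a group are too few to exclude it. The alternatives tried were quantile scaling; normexp (offset 50) with quantile scaling; the values by the authors; testing every probe or only those above background in 6 tumours; averaging the probes of a gene; a replicate block; a variance trend with robust estimation; array weights; and leaving out each tumour. Printed sequences are probe sequences from the array files. The sequence of the mimic is not printed, and some genes that the naming rule takes are not reported here.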

Additional observations from a re-analysis of the deposited data

Results flagged for a closer look

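Htr1f, a serotonin receptor coupled to Gi, was not tested and gave a signal in 1 tumour. Its only probe read -5.51, -3.50 and -5.77 in miR-124a 1, 2 and 3, against -6.20, -6.48 and -6.32 in control 1, 2 and 3, as log2 signal relative to the array's 75th percentile. It was well above background in miR-124a 2 and in 0 of 3 control tumours. With 1 tumour above background there is no replicate of this signal, and miR-124a 2 also had the highest signal of its group in 52 of the 61 subunits tested.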

How the results depend on the processing

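No subunit passed the threshold in 14 of 15 alternative settings, and 1 did (Gabrr2) with normexp, where 1542 genes passed instead of 742. The count over all genes was 96 without a filter on dim probes (37002 genes tested), 1723 with a variance trend and robust estimation, and 0 to 375 when 1 tumour was left out, so a call at the threshold depends on which tumours are in the fit. With the replicate block, 0 genes, 0 subunits and 0 muscle nicotinic subunits passed. An unadjusted p under 0.05 (limma) was then found in 22 of 61 subunits (background 21.6%). The median subunit fold change lay between 0.27 and 0.54 over these 15 settings and was 0.14 with miR-124a 2 and control 3 both left out. The counts that follow were added after the data were seen, as was that alternative. Subunits with an unadjusted p under 0.05 (limma) numbered 9 to 28 of 61 when 1 tumour was left out (background 17.9% to 26.7%). They numbered 6 with both tumours left out (background 19.8%), when 6 genes and 0 muscle nicotinic subunits passed. The muscle nicotinic count of 5 was 0 without a filter on dim probes and 0 to 5 when 1 tumour was left out. Subunits with a fold change above 0 numbered 47 to 53 of 61 when 1 tumour was left out. With Agilent's less strict flag, positive and significant, the median count of detected subunits per tumour was 71 instead of 61. For 40 genes each alternative gave a fold change of the same direction. These were reported subunits named by smallest p in each family and the genes taken from the other lists by the stated rule. Genes named after their values were seen were not among the 40. Of those, Grik1, Gabrr1 and Chrna7 had probes of both signs, so their direction depended on the probe. Among the 40 genes, 16 had passed the threshold. Their call was lost in 125 of 256 values, chiefly where tumours were left out, with the replicate block or without a filter. The other 24 had no call to lose and gained one in 3 of 384 values: Gabrr2 with normexp, and Slc12a2 with normexp and with a variance trend. The causes were not tested. Quantile scaling and normexp moved the median of all genes by 0.021 and 0.012. The fits have 3 tumours a group, and for dim genes such as Chrnb4 the signal over background limits the size of a fold change.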
